A study of Mus musculus with 6 samples.

Results

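Type IV collagen is the network-forming collagen of basement membranes, and its 6 chains are encoded by Col4a1 to Col4a6. All 6 genes were found among the 52636 genes of the count table by their Ensembl identifiers without version number, and all 6 were expressed in mouse thoracic aorta. The table holds bulk RNA sequencing of 6 aortas taken at 12 weeks of age. The 4 WT libraries came from untreated C57BL/6J mice. The 2 libraries labelled KO came from Tgfbr1/2iSMCKO mice with floxed receptor alleles (Tgfbr1f/f and Tgfbr2f/f), the mT/mG reporter and a Cre transgene, Myh11-CreERT2. Tamoxifen was given to them i.p. (2 mg/d on 5 days) starting at 11 weeks. In these mice the Cre is driven by the Myh11 promoter and acts in smooth muscle cells (SMCs), so other aortic cells were not targeted. The groups differed in the floxed alleles, the Cre, the reporter and the tamoxifen together, and these cannot be told apart.

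Each type IV collagen molecule is a triple helix. The products of Col4a1 and Col4a2 form the classical trimer found in nearly all basement membranes, including those that surround single SMCs. Those of Col4a3, Col4a4 and Col4a5 form a trimer known from kidney glomerulus and lung, and those of Col4a5 and Col4a6 combine in a trimer found around smooth muscle and some epithelia. The genes lie in head-to-head pairs, each pair read in opposite directions from a shared 5′ region, and deposition of type IV collagen is a known target of TGF-β signalling.

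On GRCm38, Col4a1 (chr8:11198423-11312826, minus strand) and Col4a2 (chr8:11312805-11449287, plus strand) overlapped by 22 bases of their first exons. Col4a4 (chr1:82448423-82586849, minus strand) and Col4a3 (chr1:82586921-82722059, plus strand) were separated by 71 bases. Col4a6 (chrX:141165403-141474076, minus strand) and Col4a5 (chrX:141475385-141689234, plus strand) were separated by 1308 bases. All are protein coding. Stretches from between the start sites of the last 2 pairs are shown because the members of a pair are compared below. Between Col4a6 and Col4a5 only 250 and 216 bases next to the genes are shown, and the rest of that gap was not searched. All stretches are RefSeq promoter sequences on GRCm38.p6, with matches to the searched motifs in capitals. The first is the whole gap between Col4a4 and Col4a3 (chr1:82586850-82586920, minus strand). The second is upstream of Col4a6 (chrX:141474077-141474326, minus strand), and the last upstream of Col4a5 (chrX:141475169-141475384, plus strand).
Col4a4 to Col4a3 gap: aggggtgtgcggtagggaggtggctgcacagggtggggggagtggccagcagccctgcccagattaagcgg
Col4a6 upstream: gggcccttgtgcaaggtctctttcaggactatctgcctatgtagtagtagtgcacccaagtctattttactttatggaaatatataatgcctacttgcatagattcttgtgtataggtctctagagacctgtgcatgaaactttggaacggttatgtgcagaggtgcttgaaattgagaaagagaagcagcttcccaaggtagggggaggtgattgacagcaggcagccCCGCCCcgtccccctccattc
Col4a5 upstream: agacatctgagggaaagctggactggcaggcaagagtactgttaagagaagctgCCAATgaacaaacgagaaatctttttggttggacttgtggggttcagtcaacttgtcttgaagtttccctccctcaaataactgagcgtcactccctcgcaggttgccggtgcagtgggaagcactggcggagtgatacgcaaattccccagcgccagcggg

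The 4 short motifs searched on both strands were a core Smad element (CAGAC), the CCAAT box (CCAAT), the GC box (GGGCGG) and the TATA box (TATAAA), and none of them contains another. The gap of 71 bases held none of the 4 and was 69.0% G and C. The Col4a6 stretch held 1 GC box and was 47.6% G and C, and the Col4a5 stretch held 1 CCAAT and was 52.3% G and C. In windows of 300 bases around the RefSeq start sites, which covered 5 of the 6 genes (not Col4a3), GGGCGG was in 4 of 5 against 35.7% of all 32851 promoters. CCAAT was in 3 of 5 against 37.4%, CAGAC in 2 of 5 (Col4a2 and Col4a4) against 49.6%, and TATAAA in 0 of 5 against 13.6%. The windows of Col4a1 and Col4a2 share 78 bases. G and C made up 74.0% of the Col4a1 window, 73.7% for Col4a2 and 63.3% for Col4a4. For Col4a5 it was 52.7% and for Col4a6 48.3%, against a median of 52.7% over all promoters. The motif shares are not adjusted for this. A match describes letters and is not a binding site.

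Total estimated counts were between 19650983 and 28860598 per library. The 6 chains together took 0.381% to 0.431% of all counts in WT, 0.299% in KO 1 and 0.237% in KO 2. Gene-level counts of the targeted receptors were not lower in the libraries labelled KO (Tgfbr1 log2 fold change 0.20 ± 0.20 SE, adjusted p = 0.640, and Tgfbr2 -0.09 ± 0.18, adjusted p = 0.845). These counts span whole genes and all cell types, whereas Cre removes part of each gene in SMCs, so they do not settle the labels. Mitochondrial transcripts took 11.7% of counts in KO 2 and 2.62% to 4.44% in the other libraries. Smooth muscle markers were abundant in every library (summed normalised counts of 8 genes 939415 to 1110230 in WT, 903207 in KO 1 and 1083900 in KO 2), and none of the 8 passed the test. They did not move together. Both KO libraries lay below the WT range for Tagln (log2 fold change -0.41), Cnn1 (-0.38) and Smtn (-0.30). For Myh11 (0.36) and Des (0.40) both lay above it. KO 1 had high cardiac muscle markers (sum of 5 genes 23811, against 2710 in KO 2 and 655 to 1630 in WT), and KO 2 had high brown adipocyte markers (sum of 3 genes 10729, against 555 in KO 1 and 342 to 537 in WT) and white adipocyte markers (sum of 4 genes 6755, against 849 in KO 1 and 411 to 998 in WT).

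Of the 6 chain genes 4 were lower in KO, 1 was higher and 1 did not pass the test. Col4a1 fell by 32.0%, Col4a6 fell by 33.3%, Col4a5 fell by 38.2% and Col4a2 fell by 45.5%, whereas Col4a3 rose 1.69-fold. Col4a4 had a value of 1.18-fold and did not pass. Among all 17537 genes with an adjusted p-value, 10.1% were called at adjusted p under 0.05 by DESeq2, 4.54% lower and 5.53% higher in KO. None of the 6 passed the added fold change threshold of 2 used by the study, which 5.49% of genes passed. Both KO libraries lay outside the WT range for all 6 chains, below it for 4 and above it for 2, against 33.9% of genes in either direction, 16.3% below and 17.6% above. In whole aorta, fewer cells of a type and less RNA per cell cannot be told apart.

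**Figure D1:**
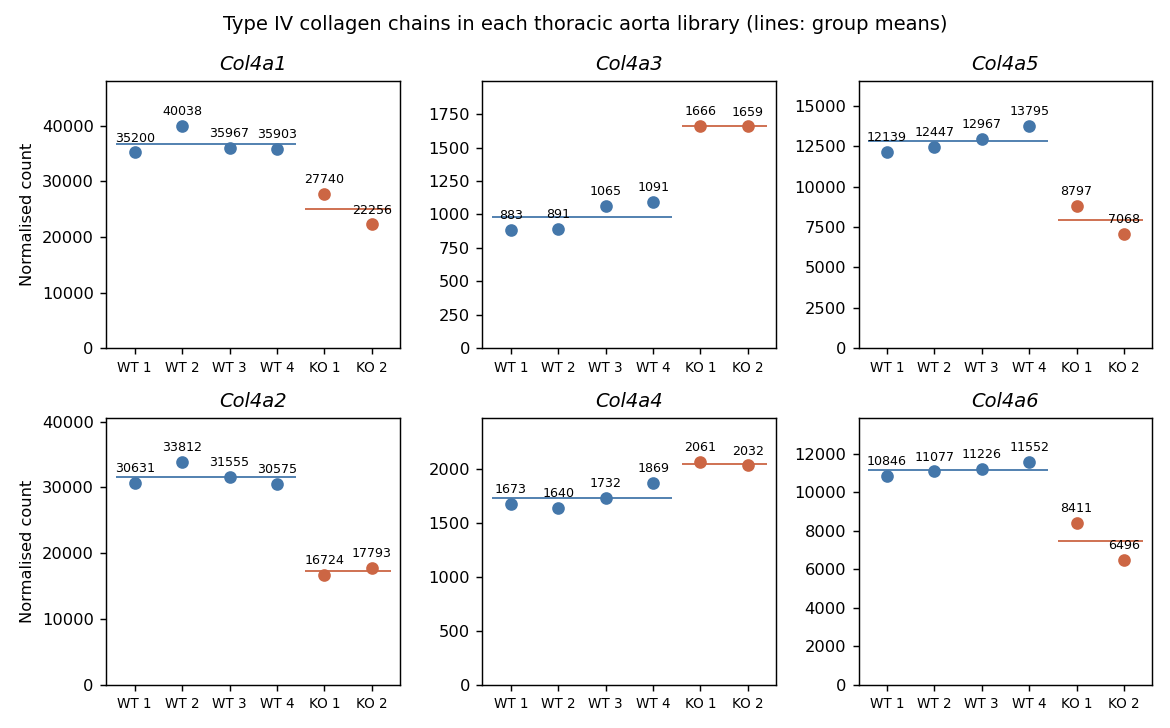
Normalised counts (estimated counts divided by DESeq2 size factors, linear axes from 0) of the 6 chains in each library, WT in blue and KO in orange, with a line at each group mean. For Col4a1, Col4a2, Col4a5 and Col4a6 both KO points lie below all 4 WT points, and for Col4a3 and Col4a4 both lie above.

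Col4a1 had normalised counts of 35199.7, 40038, 35967 and 35903 in WT 1 to WT 4, and 27739.5 and 22256.5 in KO 1 and KO 2. WT 2 stood above the other WT libraries, and the 2 KO libraries differed from each other more than WT 1, WT 3 and WT 4 did. The group means were 36777 ± 2202 (SD, n = 4) and 24998 ± 3877 (SD, n = 2), a log2 fold change of -0.56 ± 0.16 SE (95% interval -0.88 to -0.24, adjusted p = 0.0109). This call was lost without KO 2 (-0.40, adjusted p = 0.111) and after a GC content trend was taken out of each library (-0.34, adjusted p = 0.155). In edgeR's quasi-likelihood test the adjusted p was 0.0521 with a filter on low counts.

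Col4a2 had normalised counts of 30631, 33812, 31555 and 30575 in WT 1 to WT 4, and 16724 and 17793 in KO 1 and KO 2. The groups were far apart, and the 2 KO libraries lay close together. The means were 31643 ± 1514 (SD, n = 4) and 17259 ± 756 (SD, n = 2). Its log2 fold change of -0.87 ± 0.14 SE (95% interval -1.16 to -0.59, adjusted p = 1.32e-07) passed, and the call held under each of the 14 alternatives run. With the GC trend taken out the value was -0.58 (adjusted p = 0.00158).

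Col4a2 fell further than Col4a1 in both KO libraries, mostly in KO 1. The log2 ratio of Col4a1 to Col4a2, which needs no scaling for depth, was 0.20, 0.24, 0.19 and 0.23 in WT 1 to WT 4, 0.73 in KO 1 and 0.32 in KO 2. Both KO values lay above the WT range, but they differed widely from each other. The difference of the means was 0.31, with p = 0.133 in an exact two-sided permutation test over the 15 allocations of 4 and 2 libraries, the smallest p this design allows, so no ratio could pass 0.05. It was 0.51 without KO 2 and 0.11 without KO 1.

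Col4a3 was the chain gene that rose. Its normalised counts were 883, 891, 1065 and 1091 in WT 1 to WT 4, and 1666 and 1659 in KO 1 and KO 2. The KO libraries agreed closely and both lay above every WT library. The means were 982 ± 111 (SD, n = 4) and 1662 ± 4.35 (SD, n = 2), a log2 fold change of 0.76 ± 0.18 SE (95% interval 0.40 to 1.12, adjusted p = 8.88e-04). It passed without either KO library (0.76 without KO 1 and 0.77 without KO 2).

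Col4a4, its neighbour across 71 bases, had normalised counts of 1673, 1640, 1732 and 1869 in WT 1 to WT 4, and 2061 and 2032 in KO 1 and KO 2. Both KO values were above the WT range, by less than the WT libraries varied among themselves. The log2 fold change of 0.24 ± 0.16 SE had a 95% interval of -0.07 to 0.55 and an adjusted p = 0.388, and it passed under none of the 14 alternatives. The interval leaves room for a rise of up to 1.47-fold.

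The log2 ratio of Col4a3 to Col4a4 was -0.92, -0.88, -0.70 and -0.78 in WT 1 to WT 4, and -0.31 and -0.29 in KO 1 and KO 2. Here the KO libraries lay together and outside the WT range. The difference of the means was 0.52 (p = 0.133, exact permutation test, the smallest possible). It was 0.49 to 0.56 with any 1 library left out. Part of Col4a3 overlaps C430014B12Rik on the other strand, with 563 shared exon bases. Normalised counts of C430014B12Rik were at most 26.1 in a library. Whether the counting used strand is not stated, so reads from the shared exon bases cannot be told apart.

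Markers of other cell types were examined beside these values. The 5 lung epithelial genes summed to 18.9 to 207 normalised counts in WT, 69.0 in KO 1 and 148 in KO 2, so WT 3 had more than either KO library. All 5 mesothelial markers rose (sum 207 to 408 in WT, 848 in KO 1 and 2208 in KO 2), as did 4 of 5 macrophage markers (5926 to 7218 in WT, 10518 and 11499 in KO). Of 7 endothelial markers 3 rose (sum 11666 to 21386 in WT, 30546 and 29521 in KO), and of 7 fibroblast markers 3 rose (sum 45997 to 52326 in WT, 67843 and 62891 in KO). The endothelial marker Egfl7 was lower in both KO libraries than in any WT library, but did not pass (log2 fold change -0.48, DESeq2 adjusted p = 0.134). Over all tested genes 5.53% were higher in KO. None of the 4 Schwann cell markers passed (sum 266 to 413 in WT, 509.9 in KO 1 and 419 in KO 2). The part of these cells in the values of any chain was not tested.

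Col4a5 had normalised counts of 12139, 12447, 12967 and 13795 in WT 1 to WT 4, and 8797 and 7068 in KO 1 and KO 2. KO 2 was the lower, as for Col4a1, and no KO library reached the WT range. The means were 12837 ± 725 (SD, n = 4) and 7933 ± 1223 (SD, n = 2), with a log2 fold change of -0.69 ± 0.16 SE (95% interval -1.02 to -0.37, adjusted p = 7.00e-04). It was -0.53 (adjusted p = 0.0154) without KO 2.

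Col4a6 had the steadiest WT values, with normalised counts of 10846, 11077, 11226 and 11553 in WT 1 to WT 4, and 8411 and 6496 in KO 1 and KO 2. The order of the 2 KO libraries was that of Col4a5. The means were 11176 ± 296 (SD, n = 4) and 7454 ± 1354 (SD, n = 2), a log2 fold change of -0.58 ± 0.17 SE (95% interval -0.91 to -0.26, adjusted p = 0.00754). The call was lost without KO 2 (-0.40, adjusted p = 0.0642) and when total counts set the scaling (-0.54, adjusted p = 0.0535).

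The Col4a5 to Col4a6 pair moved nearly in parallel. Its log2 ratio was 0.16, 0.17, 0.21 and 0.26 in WT 1 to WT 4, and 0.06 and 0.12 in KO 1 and KO 2. Both KO values lay below the WT range, by a small margin. The difference of the means was -0.11 (p = 0.133, exact permutation test, the smallest possible), against 0.31 and 0.52 in the other 2 pairs. With p-values adjusted over the 3 pairs by Benjamini-Hochberg the p stayed 0.133 for each, and the differences between pairs were not tested.

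**Figure D2:**
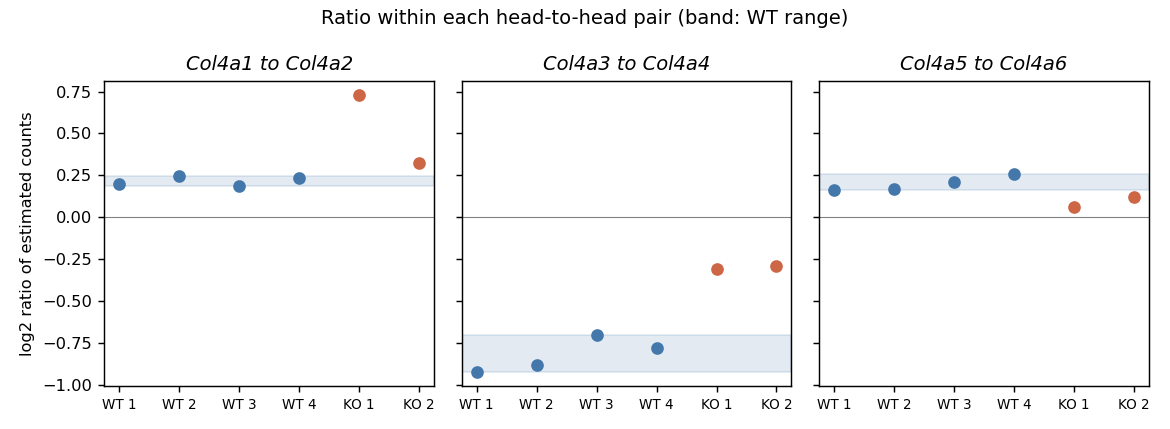
Log2 ratio of estimated counts within each head-to-head pair (vertical axis) in each library (horizontal axis), WT in blue, KO in orange, with the WT range shaded. The KO points lie above the band for Col4a1 to Col4a2 (0.73 and 0.32) and Col4a3 to Col4a4 (-0.31 and -0.29), and just below it for Col4a5 to Col4a6 (0.06 and 0.12).

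**Figure D3:**
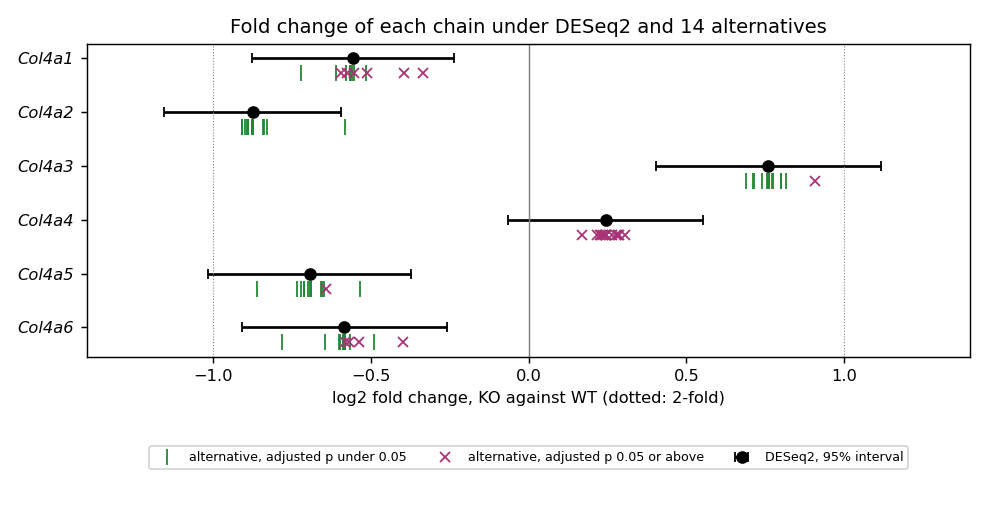
Log2 fold change of each chain, KO against WT, by DESeq2 with its 95% interval (black), and under 14 alternatives (green ticks with adjusted p under 0.05, purple crosses without). No alternative turned a direction, all ticks of Col4a2 are green, and all marks of Col4a4 are crosses.

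Levels of different genes were compared as normalised counts per kb of merged exons. In WT, Col4a1 (4927 ± 295, SD, n = 4) and Col4a2 (4781 ± 229) led, and their ranges over libraries overlapped. Col4a5 (1911 ± 108) and Col4a6 (1402 ± 37.1) came next, and Col4a4 (163 ± 9.54) and Col4a3 (98.6 ± 11.1) were far below, with no overlap between the ranges of neighbours in that order. Per kb, Col4a1 and Col4a2 stood above 99.4% of genes with any count, Col4a5 above 98.2%, Col4a6 above 97.5%, Col4a4 above 77.7% and Col4a3 above 69.7%. In KO the order of means was the same, with 3349 ± 519 (SD, n = 2) for Col4a1, 2607 ± 114 for Col4a2, 1181 ± 182 for Col4a5, 935 ± 170 for Col4a6, 193 ± 1.94 for Col4a4 and 167 ± 0.437 for Col4a3. There, Col4a5 in KO 2 (1052 per kb) lay beside Col4a6 in KO 1 (1055 per kb), so these 2 ranges overlapped.

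**Figure D4:**
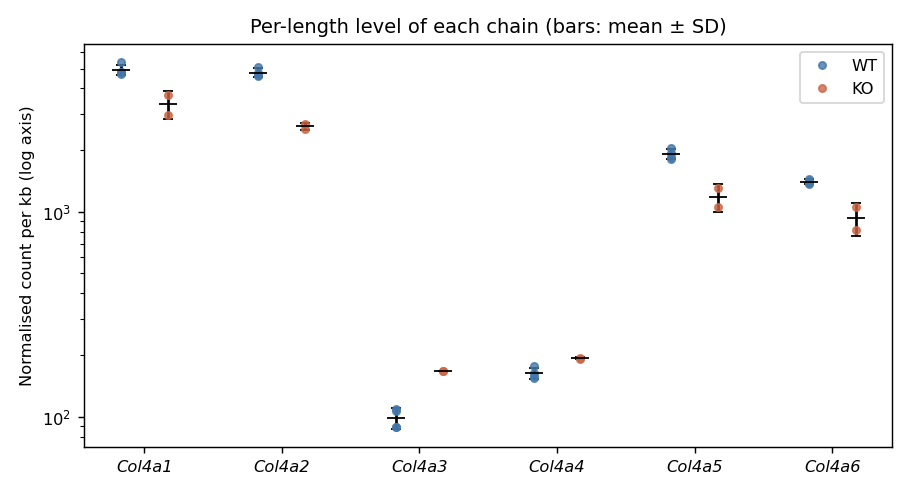
Normalised count per kb of merged exons (log axis) of each chain, with a point per library, WT in blue and KO in orange, and bars of mean ± SD. Col4a3 and Col4a4 lie between 88.6 and 194 per kb in every library, whereas the lowest value of the other chains is 815.

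The summed level of the 6 chains per kb was 13282 ± 498 in WT (SD, n = 4) and 8432 ± 759 in KO (SD, n = 2), a ratio of 0.635. Within that sum, Col4a3 and Col4a4 together made up 1.75% to 2.16% in WT, 4.03% in KO 1 and 4.53% in KO 2. The share of Col4a5 and Col4a6 was 23.2% to 26.5% in WT, 26.4% in KO 1 and 23.6% in KO 2, within the WT range in both. The share of Col4a1 and Col4a2 was 71.3% to 75.0% in WT, 69.6% in KO 1 and 71.8% in KO 2. No test was run on shares.

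The 24 genes for synthesis, secretion and crosslinking of collagens were next. By DESeq2 4 of 24 were lower and 2 higher in KO, with a median log2 fold change of -0.17 against 0.01 over all tested genes. Over all tested genes 4.54% were lower and 5.53% higher. P3h2, a prolyl 3-hydroxylase that acts on type IV collagen, fell from 2179, 2698, 2426 and 2499 normalised counts in WT to 1166 and 1184 in KO, a log2 fold change of -1.06 ± 0.17 SE (adjusted p = 3.18e-08). Colgalt1, which adds galactose to collagen hydroxylysine, fell (-0.63, adjusted p = 0.00137), as did the lysyl hydroxylase gene Plod2 (-0.47, adjusted p = 0.0486) and Loxl3 (-0.53, adjusted p = 0.0193). The lysyl oxidase gene Lox rose by 0.50 on the log2 scale (adjusted p = 0.0269), and P4ha3, a prolyl 4-hydroxylase subunit at low level, rose from 7.69 to 18.8 normalised counts in WT to 56.1 and 140 in KO (adjusted p = 8.54e-05). The remaining 18 did not pass, among them Pxdn, peroxidasin, which makes the sulfilimine bonds of type IV collagen (-0.27, adjusted p = 0.309), and Serpinh1, the collagen chaperone HSP47 (-0.01, adjusted p = 0.987). Without KO 2, P4ha3 (adjusted p = 0.120) and Loxl3 (0.0780) did not pass, and without KO 1, Lox (0.128) and Plod2 (0.168) did not. With edgeR's test 3 of the 24 passed (P3h2, Colgalt1 and P4ha3).

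Among 24 other basement membrane genes, 23 had an adjusted p-value, of which 8 were lower and 4 higher in KO (median -0.13). Of all tested genes 4.54% were lower and 5.53% higher. Among the 8 lower genes, those of the multiplexin collagens fell the most. Col15a1 had 20673, 23041, 27565 and 21866 normalised counts in WT and 539 and 768 in KO (log2 fold change -5.16 ± 0.20 SE, adjusted p = 4.54e-137), and Col18a1 had 60856, 70175, 57338 and 60773 in WT and 26854 and 26801 in KO (-1.22 ± 0.15, adjusted p = 1.45e-12). The log2 fold changes of both were larger in size than that of any type IV chain. Npnt, an integrin ligand, fell by 0.86 on the log2 scale (adjusted p = 4.19e-06), and Sparc, a collagen-binding matricellular protein, by 0.77 (adjusted p = 1.08e-04).

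The 4 that rose were Lamb1 (1.27, adjusted p = 6.05e-07) and Lama3 (1.67, adjusted p = 3.62e-04), which encode laminin chains, Nid1, whose product links laminin to type IV collagen (1.05, adjusted p = 2.57e-05), and Ntn4 (0.87, adjusted p = 6.08e-04). Nid1 went from 2318, 2514, 2959 and 3603 normalised counts in WT to 6169 and 5658 in KO. The last 4 that passed, named after their values were seen, were Lama5 (-0.65), Lamc3 (-0.99), Agrn (-0.91) and Hspg2, the gene for perlecan (-0.62). None of these 4 passed without KO 2. With the GC trend taken out, Lama5 (adjusted p = 0.187), Lamc3 (0.106) and Hspg2 (0.301) did not pass in DESeq2. Lama5 (adjusted p = 0.0722), Lamc3 (0.128) and Agrn (0.0601) did not pass in edgeR's test. Lama1 had 0 counts in all libraries. In this list 6 rose and 5 fell without KO 2, and 4 rose and 9 fell without KO 1.

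Of 18 receptor genes, 5 were lower and 4 higher in KO (median -0.07), against 4.54% and 5.53% of all tested genes. The lower ones were Itga7 (-1.07, adjusted p = 3.59e-04) and Bcam (-0.79, adjusted p = 3.58e-05), which encode laminin receptors, Itga5 of the fibronectin receptor (-0.69, adjusted p = 1.72e-04), the collagen receptor gene Ddr1 (-0.67, adjusted p = 2.87e-04) and Itgb3 (-0.56, adjusted p = 0.0282, named after its value was seen). Of the genes of collagen-binding integrins, Itgb1 (-0.12, adjusted p = 0.760) and Itga1 (0.15, adjusted p = 0.686) did not pass. Neither did Itga10 (-0.02, DESeq2 adjusted p = 0.977), nor Itga11 (0.72, adjusted p = 0.0529), with both KO libraries above the WT range. The collagen receptor gene Ddr2 did not pass either (0.28, DESeq2 adjusted p = 0.349). Itga2, at 18.7 to 36.9 normalised counts in WT and 78.2 and 162 in KO, rose (adjusted p = 0.00149), as did Itga6 of laminin receptors (2.23, adjusted p = 7.54e-05) and Adgrg6, a type IV collagen receptor (1.62, adjusted p = 0.0149). Gp6, the platelet collagen receptor, had 0 counts in all 4 WT libraries and 20 and 27 in KO 1 and KO 2. That is at least 7.98-fold higher against a floor of 3 counts per library. Its DESeq2 adjusted p (3.37e-04) came only through the KO counts and is not read as support. Gp6 is among the 4 higher genes. Without KO 2, Itgb3 (adjusted p = 0.280), Itga2 (0.208), Itga6 (0.0638) and Adgrg6 (0.259) did not pass, and Gp6 had no adjusted p without either KO library. Itgb3 did not pass in edgeR's test either (adjusted p = 0.0722).

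Of 19 genes for degradation and its inhibitors, 16 had an adjusted p-value, of which 1 rose and 1 fell (median 0.02). The shares over all tested genes were 5.53% higher and 4.54% lower. Ctss, the cathepsin S gene, rose from 447, 293, 397 and 442 normalised counts in WT to 807 and 1186 in KO (1.34, adjusted p = 9.25e-06). Macrophage markers rose as well, as given above, and a link between the rises was not tested. Mmp3 fell by 0.96 on the log2 scale (adjusted p = 0.0291), with KO 1 inside the WT range, and did not pass without KO 2 (adjusted p = 0.434) or in edgeR's test (0.135). Mmp2 (0.18, adjusted p = 0.632) and Mmp9 (0.06, adjusted p = 0.944), for gelatinases that cut type IV collagen, did not pass.

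**Figure D5:**
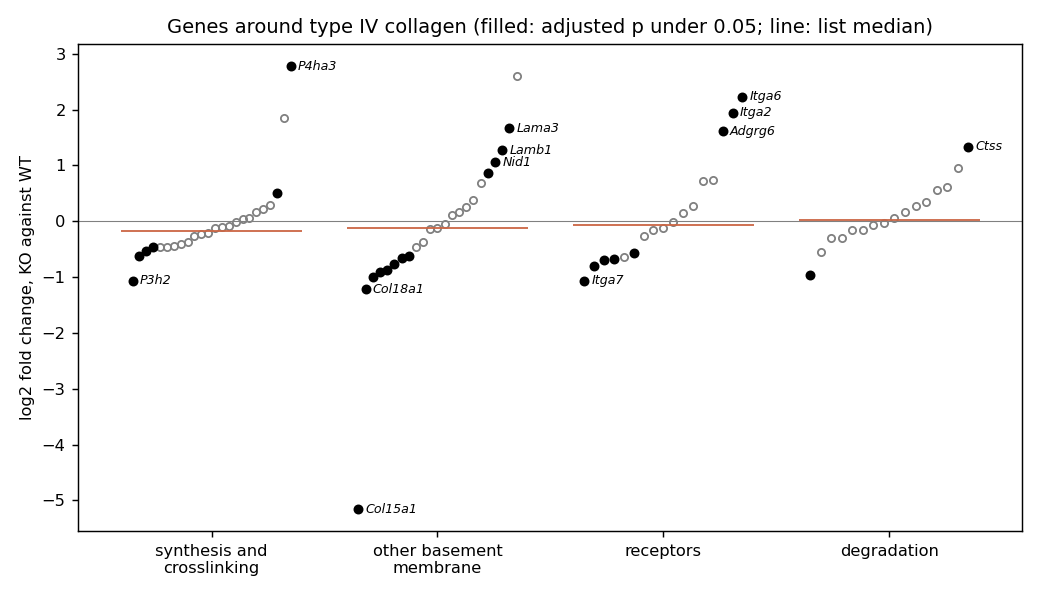
Log2 fold change, KO against WT, of the genes around type IV collagen (a point per gene, sorted within its list, filled where adjusted p was under 0.05, with a line at the list median). The medians lie between -0.17 and 0.02, and Col15a1 at -5.16 lies apart from all others; Gp6, at 0 counts in WT, is not drawn.

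The nearest protein-coding genes on either side of each pair (mean normalised count 10 or more) were chosen by position. Irs2, 189965 bases beyond Col4a1, had 1817, 2067, 2245 and 3214 normalised counts in WT and 1021 and 1100 in KO, and was lower (-1.14, adjusted p = 8.74e-05). None of the others passed. These were Rab20 beyond Col4a2 (-0.21), Rhbdd1 beyond Col4a4 (0.28), Mff beyond Col4a3 (-0.22), Atg4a beyond Col4a6 (-0.01) and Nxt2 beyond Col4a5 (0.57, adjusted p = 0.0693).

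Genes with the most similar profile were ranked by Pearson's r of log2 normalised counts over the 6 libraries, among 11447 genes with a mean of at least 100. All 6 points share the split into 2 groups, so this describes likeness and is not a test. For Col4a1 they were Tpra1, C2cd2l and Syt15, and for Col4a2 they were Ccdc3, Tusc1 and Mylk2. For Col4a3 they were Asrgl1, Ahsg and Vps41, and for Col4a4 they were Prdm10, Parp14 and Dnaja3. For Col4a5 they were Abcc1, Nfrkb and Fam160a1, and for Col4a6 they were Pkd1, Gnb4 and Glis2. The r of these genes all lay between 0.996 and 0.999. No chain was among the 3 most similar genes of its pair partner, but r within the pairs was high as well. It was 0.92 for Col4a1 and Col4a2, 0.968 for Col4a3 and Col4a4, and 0.992 for Col4a5 and Col4a6. Likeness in profile was not likeness in size: Ccdc3, first for Col4a2, fell by 1.20 on the log2 scale (adjusted p = 1.34e-12), and Tpra1, first for Col4a1, had -0.47 and did not pass (adjusted p = 0.160).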

How the data were processed

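RNA of 6 mouse thoracic aortas (4 WT, 2 labelled KO) was extracted with an RNeasy Mini kit and sequenced by the authors. Per the labels, their processing used HISAT2, StringTie and DESeq2 on mm10. The values deposited by the authors are estimated counts of each gene without depth scaling, already whole numbers. How they were made whole, and whether strand was used, is not given in the sources used here. Columns carry codes, from which the group was read, but which sample of a group each one is is not shown. Libraries are numbered by the code. Each library is from a separate mouse in the study's description, so p-values measure the spread between mice.

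DESeq2 1.42.0 in R 4.3.3 (Wald test, group as the only term) was fitted across all genes, with Benjamini-Hochberg adjusted p under 0.05 and, for the study's call, a fold above 2. Normalised counts are counts divided by size factors. Pair ratios had a pseudocount of 0.5. Exon lengths and positions came from GENCODE M21. edgeR 4.0.16 was an alternative, with other scaling, filters, trends and left-out libraries. Scripts were tested on simulated data.

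Named genes were the 6 chains, the genes of each list past adjusted p 0.05 (at most 8 by smallest p), Col15a1, Col18a1, and the 3 genes most like each chain. Non-passing genes in the text lie outside this rule and were chosen with their values known. Neighbours lie outside it as well, and which genes they are was set by position and mean count. The chains and the lists were chosen with earlier results of these data known. Intervals cover the model error, and the floor of 3 counts covers counting error only. The result of 1 marker list is not reported here.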

Additional observations from a re-analysis of the deposited data

Results flagged for a closer look

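Col4a1 in WT 2, at a normalised count of 40038, lay apart from the other WT libraries, which ran from 35199.7 to 35967. The gap to the next library was 0.841 of the WT range. It was 1 of 13 values checked in the 4 WT libraries, and chance gives about 1 in 20. Without WT 2 the log2 fold change of Col4a1 was -0.51 (adjusted p = 0.0438, DESeq2).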

How the results depend on the processing

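Every chain kept its direction under all 14 alternatives, and the calls of Col4a2 and Col4a4 did not change. Of the 5 chains past adjusted p 0.05, 3 passed in edgeR's quasi-likelihood test without a filter, 3 with total counts as scaling, and 1 with the replicate number as a block. Col4a1 lost its call in edgeR with filterByExpr (-0.57) and without a filter (-0.55), with total counts (-0.51), with the GC trend taken out (-0.34) and with the replicate block (-0.60). Col4a6 lost it in edgeR without a filter (-0.58), with total counts (-0.54) and with the block (-0.57). With the block, Col4a3 (0.91) and Col4a5 (-0.64) lost it as well. The cause was not tested. That fit leaves 1 residual degree of freedom, and the numbers are codes that give no pairing (correlations of deviations -0.073 and 0.006 over 12591 genes).

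With 1 library left out, 3 to 5 chains passed. Fold changes then ran from -0.72 to -0.40 for Col4a1 and from -0.78 to -0.40 for Col4a6, and only leaving out KO 2 ended a call. The pair ratios kept their sign with a pseudocount of 1 and with any library left out. Per kb of the longest transcript, WT levels of Col4a1 (5560), Col4a3 (115) and Col4a6 (1681) moved by more than 1 SD, and the order of the chains was kept. Over all genes, 1766 were called, against 996 in edgeR with filterByExpr, 931 without a filter, 632 with the block and 1113 without KO 2. Leaving out KO 1 or KO 2 from the partner lists was added after seeing the data. With 2 KO libraries, small changes such as that of Col4a4 could not be resolved.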
